A study of Mus musculus with 3 samples.

Results

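The nuclei described here are the stromal, endothelial and fat nuclei of mouse abdominal aorta, compared between an aneurysm that formed under cigarette smoke and an aorta kept in room air. A nucleus was used if its barcode held at least 500 UMIs (unique molecular identifiers, each standing for 1 captured RNA molecule) and 300 genes, and under 5% mitochondrial UMIs. It also had to show at most 1 of 6 macrophage genes, Csf1r, Mertk, Adgre1, Ms4a7, Cd68 and F13a1, and to fall in a cluster of smooth muscle, fibroblast, endothelial or fat nuclei. That left 3064 nuclei in the room air library and 4037 in the aneurysm library, 7101 of the 30730 nuclei that passed the depth filters in the 3 libraries of the series. The third library, smoke without an aneurysm, held 3315 such nuclei and is given beside the other two.

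RNA of single nuclei was counted on the 10x Genomics droplet platform, with 1 library a group. All mice were ApoE-/- on the C57Bl/6 background, fed a high fat diet and exposed for 20 weeks to room air or to cigarette smoke. ApoE-/- mice lack a protein that takes lipoprotein particles out of the blood, and they form arterial plaques, so the room air library is itself from a model of arterial disease. The aortae were frozen slowly, and their nuclei were released by detergent lysis and purified on anti-nucleus beads, a step that can set the share of each cell type. How many animals each library holds, their age and their sex were not stated in the labels. The aneurysm library differs from the room air library in both smoke and aneurysm, and these cannot be told apart from the pair alone.

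With 1 library on each side there was no replicate and no test. Each value below is a sum over the nuclei of 1 type in 1 library, given as CPM, a gene's UMIs scaled to the same total in every type, and values follow the order room air, smoke, aneurysm unless named. A range in parentheses after a ratio or a share is an exact 95% interval that covers counting error only, not the spread between animals. For a ratio it takes each UMI as independent, so it leaves out the spread between nuclei too. It is too narrow where a few nuclei hold most UMIs of a gene. A gene was called measured where at least 10 UMIs would be expected in each of the pair of libraries at equal CPM, and higher or lower where the aneurysm and room air values were at least 1.5-fold apart. Droplets also catch free RNA from broken cells. A gene is therefore marked below as under the level of the other nuclei where its CPM, in the library where it was higher, was lower than in all other nuclei of that library.

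The wall of the aorta has an inner lining of endothelium, a media of smooth muscle cells between sheets of elastin, and an adventitia of fibroblasts that passes into perivascular fat. Smooth muscle and fibroblasts lay down elastin and collagen, while metalloproteases and cathepsins break them down and TIMPs and serpins restrain that loss. An abdominal aneurysm is known for broken elastic sheets, loss of contractile smooth muscle and remodelled collagen. The fat around the vessel includes white adipocytes, which store lipid, and brown adipocytes, which burn it through the uncoupling protein UCP1.

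The libraries differed in depth. The room air, smoke and aneurysm libraries held 13189, 14859 and 7348 barcodes and 73891039, 117247048 and 15634797 UMIs. Median UMIs per nucleus that passed the macrophage rule were 2713.5, 3863 and 1419. The rule passed 51.5%, 42.9% and 81.9% of filtered nuclei, so it removed a larger part of the deeper libraries. Barcodes shared between libraries numbered 46 for room air and smoke, 29 for room air and aneurysm and 26 for smoke and aneurysm. The disrupted gene, Apoe, had 3.63, 5.44 and 5.02 CPM over all filtered nuclei, from 248, 630 and 64 UMIs, and which exons the allele lacks was not stated.

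In all, 10 types were told apart by clustering the 3 libraries together. The contractile smooth muscle-like nuclei, which held UMIs of 10 of 10 smooth muscle markers, had Myh11, the smooth muscle myosin heavy chain, at 2357, 2582 and 3288 CPM. Grin2a-high stromal nuclei had the same gene at 548, 612 and 634 CPM and the collagen gene Col1a2 at 1101, 890.3 and 475 CPM, so both smooth muscle and fibroblast genes were found there. They pool 4 clusters, led by Cemip, by Grem1 and Brinp3, by Pde8b, and by the cell cycle genes Diaph3 and Cenpf. The first 2 of these had no class name by their markers, so the pool is called stromal and given no cell type. The other 2 were named smooth muscle. Of the unnamed ones, the Cemip-led cluster scored highest for smooth muscle, and the Grem1-led cluster for pericyte with fibroblast close behind. C7-high and Cd55-high nuclei were fibroblast-like, with the complement gene C7 at 4908, 4972 and 3968 CPM in the former. Bmp6-high, Btnl9-high and Pkhd1l1-high nuclei were endothelial-like, with the junction gene Cdh5 at 323, 362 and 306 CPM in the first. Lymphatic endothelial-like nuclei had Prox1, and 2 sets of adipocyte-like nuclei were separated by Ucp1. Macrophages, lymphocytes, dendritic cells, neurons and striated muscle made up the nuclei left out.

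Fat nuclei made up a much larger share of the aneurysm library than of either other library. Adipocyte-like nuclei were 0.476% (0.314 to 0.691) of the nuclei that passed the macrophage rule in room air, 2.30% (1.93 to 2.71) in smoke and 25.6% (24.4 to 26.9) in aneurysm. Those percentages stand for 27, 138 and 1198 nuclei, so aneurysm was 53.9-fold above room air, and smoke lay between. How much perivascular fat was dissected with each aorta was not stated in the labels, so tissue taken and tissue changed cannot be told apart. Where adipocytes were called from marker UMIs in place of clusters, the ratio was 11.9.

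Among the vessel wall types, shares were higher for some and lower for others. Contractile smooth muscle-like nuclei were 4.61% (4.08 to 5.19) in room air, 4.99% (4.46 to 5.58) in smoke and 2.59% (2.15 to 3.09) in aneurysm, or 262, 300 and 121 nuclei. Room air and smoke were alike here, and aneurysm stood at 0.561 of room air. With fat nuclei left out of the total the ratio was 0.494. The Grin2a-high stromal nuclei went the other way, with 15.99% (15.0 to 16.97), 15.0% (14.1 to 15.9) and 21.8% (20.6 to 23.02). That ratio of 1.36 was 1.20 without fat nuclei in the total and 1.73 without the macrophage rule.

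Fibroblast-like nuclei were 7.06% (6.41 to 7.76) in room air, 8.26% (7.57 to 8.98) in smoke and 14.9% (13.9 to 15.9) in aneurysm, a ratio of 2.11. Both kinds were higher in aneurysm. The Cd55-high nuclei did not form a type of their own when the nuclei were clustered without the macrophage rule. The C7-high nuclei went from 385 to 505 and the Cd55-high ones, which also carry Sema3c and the progenitor marker Cd55, from 16 to 190. Smoke held 35 Cd55-high nuclei, so most of that difference was between the smoke and aneurysm libraries. The Cd55-high nuclei carried the progenitor genes Pi16, at 637, 684 and 1121 CPM, and Dpp4, at 96.5, 393 and 522 CPM, and with 16 nuclei in room air their genes are not compared further.

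The endothelial types differed in direction. Bmp6-high nuclei were 20.0% (19.0 to 21.1) in room air, 15.6% (14.7 to 16.5) in smoke and 11.3% (10.4 to 12.2) in aneurysm. Btnl9-high nuclei, with the capillary genes Btnl9 and Kdr among their leading genes, were 1.13% (0.869 to 1.44), 2.08% (1.74 to 2.47) and 8.65% (7.86 to 9.49). Pkhd1l1-high nuclei numbered 244, 366 and 6, or 4.30%, 6.09% and 0.128%. That ratio of 0.0299 of room air was 0.116 without the macrophage rule, 0.104 without the mitochondrial limit and 0.0743 at a minimum of 1000 UMIs, lower in each. Read together, the 3 vascular endothelial types were 25.4%, 23.8% and 20.0%, and this total had no stable direction, since it was 1.04 times room air without the macrophage rule. Lymphatic endothelial-like nuclei were few, with 22, 53 and 68, and their share in aneurysm was 3.76 times that in room air.

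**Figure D1:**
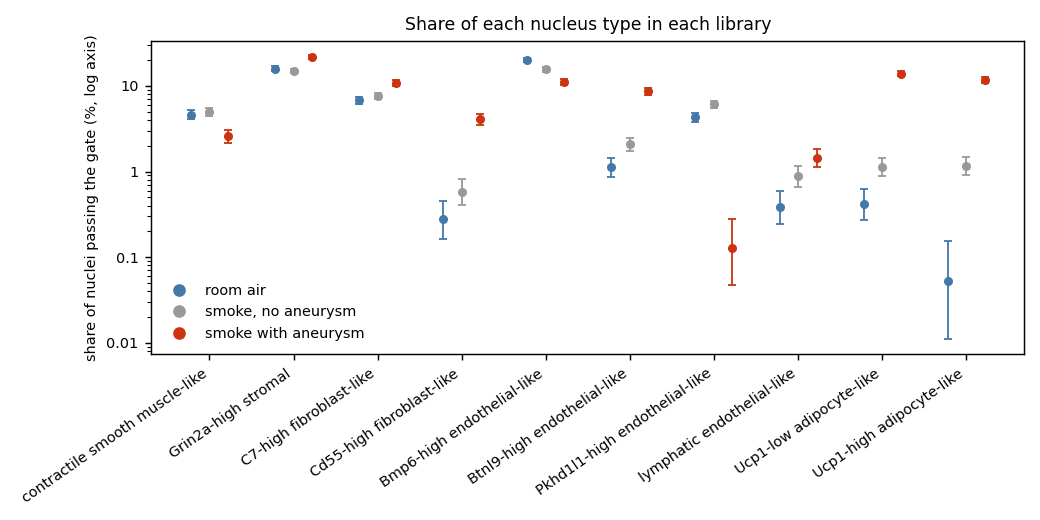
Share of each nucleus type in percent of the nuclei that passed the macrophage rule (log axis), for the room air, smoke and aneurysm libraries, with exact 95% intervals for counting error. Adipocyte-like nuclei stand at 25.6% in aneurysm against 0.476% in room air, and Pkhd1l1-high endothelial-like nuclei at 0.128% against 4.30%.

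The macrophage rule bears on these shares, because it did not pass the same part of a type in each library. Depth and the level of macrophage markers both differed between the libraries, and their part in this was not tested. When all filtered nuclei were clustered without it, 76.4% of contractile smooth muscle-like nuclei of room air and 92.2% of those of aneurysm passed the rule. For Grin2a-high stromal nuclei the pass shares were 74.0% and 92.8%, for C7-high fibroblast-like 83.7% and 96.7%, and for Bmp6-high endothelial-like 75.8% and 92.6%. A share also cannot tell fewer nuclei of a type in the tissue from fewer that survived freezing, lysis and the beads.

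Contractile smooth muscle-like nuclei of the aneurysm had contractile genes within 1.5-fold of room air, and less elastin, fibronectin and collagen III. Of 4143 genes measured in these nuclei, 11.7% were at least 1.5-fold higher and 13.3% at least 1.5-fold lower. Of the 14 measured contractile genes, 0 were past 1.5-fold in either direction, and their median log2 difference was 0.26 beside 0.01 for all measured genes. Myh11 was at 2357, 2582 and 3288 CPM, with an aneurysm to room air ratio of 1.40 (1.297 to 1.499). Acta2, which encodes smooth muscle actin, was at 1085, 975 and 1131 CPM and the 3 libraries were close. Myocd, the coactivator that turns contractile genes on, was at 820.2, 420.3 and 1179 CPM, lowest in smoke and highest in aneurysm. The myosin kinase Mylk was highest in aneurysm too, at 772, 710.2 and 1141 CPM. These genes lay near the 1.5-fold limit, and under alternative processing Mylk was past it in 9 of 15 settings, Myocd in 6 and Myh11 in 5, higher in aneurysm in each. With none of the 6 macrophage genes allowed, the list median was 0.86.

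The elastic fibre list had 9 measured genes, of which 2 were lower and 0 higher, with a median of −0.42 that was −0.067 with each nucleus thinned to 500 UMIs. Elastin itself, Eln, was at 4552, 2710.1 and 2518 CPM, from 6288, 6125 and 739 UMIs. Room air stood above the other two, which were close to each other, so the lower level was seen with smoke alone as well as with aneurysm. Room air was 1.81-fold (1.67 to 1.95) above aneurysm. Loxl1, a lysyl oxidase that cross-links elastin, was at 101, 115 and 51.1 CPM and was low only in the aneurysm library. With each nucleus thinned to 500 UMIs its log2 difference was −0.06 in place of −0.98. Thinning leaves few UMIs of Loxl1, so this cannot tell depth from counting error. Fbn1, the fibrillin of microfibrils, was at 290.3, 239 and 221 CPM, short of 1.5-fold.

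Among 14 measured collagen and matrix genes, 5 were lower and 1 higher, with a median of −0.27. Fn1 (fibronectin) was at 1149, 1208 and 644 CPM and Col3a1 (collagen III) at 801, 811 and 528 CPM. In both, room air and smoke were alike and aneurysm was lower. The collagen V gene Col5a1 was at 245, 208 and 149.9 CPM. Dcn and Thbs1 were lower, and Col14a1 higher, but all 3 were under the level of the other nuclei. Basement membrane genes had 2 of 9 lower, Col18a1 and Lama2, and 0 higher, with a median of 0.05.

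Proteases of the ADAMTS family, which cut proteoglycans and procollagens, were split. Adamts1 was at 98.4, 201 and 208 CPM, Adamts9 at 84.7, 161 and 149.9 CPM and Adamts15 at 80.4, 84.5 and 133 CPM. Smoke was close to aneurysm for the first 2 and close to room air for the last. Adamts2, a procollagen N-propeptidase, went the other way, at 322, 169.9 and 153 CPM. In all, 3 of 7 measured protease genes were higher and 1 lower, with a median of 0.52. Of 6 measured protease inhibitors 1 was lower, Serpine2, and 0 were higher.

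The TGF-beta list, whose pathway drives matrix synthesis in the vessel wall, had 2 of 13 genes higher and 3 lower. Tgfb3, a ligand, was at 37.6, 26.1 and 102 CPM, from 52, 59 and 30 UMIs, and high only in aneurysm. Ccn1, a secreted response gene, was at 226, 397 and 358 CPM and as high in smoke as in aneurysm. The 3 lower genes, Tgfbr1, Smad2 and Smad4, were all under the level of the other nuclei. Genes of modulated smooth muscle, the state that takes on fibroblast or macrophage genes in plaques, had 6 of 8 lower and 0 higher, with a median of −1.05. Of those 6 genes 5, including Spp1 at 217, 244 and 95.4 CPM and Lgals3 at 60.1, 60.2 and 30.7 CPM, were under the level of the other nuclei. Macrophage markers summed to 541, 561 and 245 CPM in these nuclei and all 5 measured ones were lower in aneurysm. Their part in the modulated list was not tested.

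Among all measured genes, the ones that stood furthest from 1 by their counting range were led by Adamtsl1, a secreted ADAMTS-like matrix protein without protease activity. Its level was 34.7, 32.7 and 279 CPM, 8.04-fold (5.56 to 11.7) higher in aneurysm than in room air. Rgs6, a brake on G protein signals, was at 41.3, 28.3 and 313 CPM. Both came from few nuclei. Adamtsl1 had UMIs in 23, 25 and 18 nuclei of 262, 300 and 121, and Rgs6 in 12, 5 and 19. In aneurysm 1 nucleus held 18 of the 82 Adamtsl1 UMIs. Errfi1, an inhibitor of the EGF receptor, stood at 58.6, 119 and 365 CPM and Sparcl1, a matricellular protein, at 29.7, 25.2 and 160.1 CPM. Zbtb16, Bmpr1b and Fmo2 were 3.30-fold, 3.30-fold and 2.94-fold higher. Bmpr1b encodes a BMP receptor and Zbtb16 a zinc finger repressor.

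On the lower side stood Fosb, an immediate early AP-1 subunit, at 554, 488 and 75.0 CPM and therefore low only in the aneurysm library. Jun, its partner, was at 418, 401 and 157 CPM. The immediate early list was mixed all the same, with 2 of 11 higher, Nr4a1 and Hsph1, 3 lower and a median of 0.00. Srgap3, Adcy2, Dclk1, Chsy1 and Flrt2 were 3.30-fold, 4.23-fold, 3.00-fold, 5.52-fold and 3.95-fold lower. Chsy1 makes chondroitin sulfate chains and Adcy2 makes cyclic AMP. The receptor kinase gene Kit had 58, 108 and 1 UMIs and Iqcn had 63, 54 and 1, with inverse ratios of 12.3 (2.13 to 495) and 13.4 (2.32 to 537), so the single aneurysm UMI leaves wide ranges. The pericyte markers Rgs5 and Notch3 differed in opposite directions, at 318, 384 and 143 CPM and 99.9, 78.3 and 235 CPM, but for Notch3 the log2 difference of 1.23 became −0.21 after thinning.

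Grin2a-high stromal nuclei had lower collagen I, collagen IV and elastin in the aneurysm, and higher Tnc, Mmp3 and Itga8. They were the best measured stromal type, with 908, 900 and 1019 nuclei and 10816 measured genes, of which 11.5% were higher and 9.05% lower. The matrix list had 6 of 19 lower and 1 higher, with a median of −0.41 beside 0.02 for all measured genes. Col1a1 was at 594, 597 and 280.3 CPM and Col1a2 at 1101, 890.3 and 475 CPM, the 2 chains of collagen I. Col1a1 was alike in room air and smoke, whereas Col1a2 stepped down from room air through smoke to aneurysm. Thbs1, a matricellular protein that activates latent TGF-beta, was at 373, 408 and 156 CPM, low only in aneurysm. Lum, Thbs2 and Col5a1 made up the rest of the lower genes. Col3a1 at 1955, 1415 and 1362 CPM did not reach 1.5-fold, and Fn1 at 3064, 3375 and 2756 CPM and Col5a2 at 1534, 1595 and 1544 CPM were close in the 3 libraries. The exception was Tnc, tenascin C, which injured vessels make, at 301, 502 and 559 CPM and already high in smoke.

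The basement membrane collagens were lower. Col4a1 was at 537, 390.4 and 227 CPM, Col4a2 at 472, 403 and 200.03 CPM and Col18a1 at 309, 303 and 102 CPM. For the first 2, smoke lay between room air and aneurysm, and for the last it was close to room air. Altogether 4 of 12 basement membrane genes were lower and 3 higher, the laminins Lama2, Lama4 and Lamb2. Of these Lama2 and Lama4 were under the level of the other nuclei.

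Elastin in the Grin2a-high nuclei was at 1945, 2670.3 and 691 CPM, from 12819, 27397 and 1825 UMIs. Smoke was the highest and aneurysm the lowest, so the direction with smoke alone was opposite to that with aneurysm. Lox, the lysyl oxidase that cross-links collagen and elastin, was at 37.5, 32.9 and 16.7 CPM, and Fbln2, Loxl2 and, under the level of the other nuclei, Fbln5 were lower too. Efemp1, Fbln1 and Ltbp4 were higher, of which Efemp1, at 53.1, 63.3 and 102 CPM, was above the other nuclei. The counts over the elastic fibre list were 5 of 16 lower and 3 higher, with a median of −0.05.

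Proteases again moved both ways, with 3 of 18 higher and 6 lower and a median of 0.01. Mmp3 (stromelysin 1) was at 117, 108 and 212 CPM, high only in aneurysm. Mmp13, a collagenase, was at 53.0, 26.7 and 79.2 CPM and just under 1.5-fold, and it is among the leading genes of a pooled cluster. Adam12 at 532, 478 and 215 CPM and Adamts2 at 544, 454 and 349 CPM were the lower proteases with the most UMIs. Among inhibitors, Timp1 was at 38.5, 28.9 and 21.97 CPM and the complement inhibitor gene Serping1 at 35.5, 35.5 and 102 CPM, so 1 of 8 was higher and 3 were lower, the others being Serpine2 and Cst3. Timp2 and Timp3 were within 1.5-fold.

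The contractile list in these nuclei had 1 of 16 genes higher and 2 lower, Des and Kcnmb1, with a median of −0.16. Within the pool that median turned, at 0.40 in the Cemip-led and 0.54 in the Pde8b-led cluster alone. Itga8, the integrin alpha 8 chain, was the higher one at 235, 501 and 491 CPM, with smoke as high as aneurysm. Of 14 TGF-beta genes, 1 was lower, Smad7, and 0 were higher. The modulated smooth muscle list had 3 of 13 lower, Lum, Cemip and Acan, and 0 higher. Acan, the cartilage proteoglycan aggrecan, was at 26.6, 57.0 and 10.6 CPM and highest in smoke. Cemip, which degrades hyaluronan, defines 1 of the pooled clusters, so its level of 1112, 623 and 274 CPM is a description of the pool.

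Inflammatory genes of these nuclei had 3 of 10 higher, Saa3, Cxcl1 and C4b, and 0 lower, with a median of 0.20. Saa3, an acute phase serum amyloid, was at 1.82, 3.12 and 23.1 CPM, from 12, 32 and 61 UMIs. The chemokine Cxcl1 was lowest in smoke, at 28.5, 9.75 and 47.0 CPM, and C4b was under the level of the other nuclei. Interferon response genes were lower, with 7 of 10 past 1.5-fold and a median of −1.22. Rsad2 was at 14.1, 7.41 and 3.03 CPM and Mx2 at 10.2, 7.99 and 1.89 CPM, and 4 of the 7 were above the level of the other nuclei. Macrophage markers summed to 476, 483 and 327 CPM in the same nuclei, with 5 of 11 lower and 1 higher, and their part in these values was not tested.

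Among all measured genes of the Grin2a-high nuclei, Mme, the membrane protease neprilysin, was 29.8-fold (18.9 to 49.7) higher. It had 20, 19 and 239 UMIs in 6, 5 and 85 nuclei, so most of its UMIs in these nuclei came from the aneurysm library. The prolactin receptor gene Prlr was at 8.35, 15.9 and 59.1 CPM and the sorting receptor gene Sorcs1 at 27.0, 43.7 and 194 CPM. The carboxypeptidase gene Cpa6 had 13, 10 and 66 UMIs. Prr16 and Rasgrf1 were 14.1-fold and 20.6-fold higher. Brinp3, with 3, 1 and 395 UMIs, helps define a pooled cluster and came from 29 aneurysm nuclei.

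The lower genes included Smad6, an inhibitory Smad of BMP signals, at 362, 341 and 89.4 CPM. Grin3a, an NMDA receptor subunit, was at 45.1, 34.4 and 7.96 CPM, and the guidance receptor gene Robo2 at 34.3, 15.9 and 4.92 CPM. Smoke lay between room air and aneurysm for each. Clca3a2 was 7.67-fold lower. The clock gene Arntl was 6.27-fold and the mitotic gene Dlgap5 21.2-fold lower.

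The pool did not hold the same clusters in the same parts. The Cemip-led cluster was 55.3% of it in room air and 21.1% in aneurysm, the Grem1-led cluster 23.1% and 33.8%, and the Pde8b-led cluster 17.3% and 43.4%. Because genes that lead these clusters also differed between the libraries, the cluster sizes are context and not a result. Within the 3 clusters in that order, the log2 difference was −1.25, −1.43 and −0.70 for Eln, and −0.83, −1.36 and −0.72 for Col1a2. Tnc gave 0.96, 0.80 and 1.12, Col4a1 gave −0.72, −1.31 and −1.23, and Mme gave 2.33, 4.32 and 2.82. These 5 genes therefore differed in the same direction and past 1.5-fold in each of the 3 clusters. The same was not so for Adam12, at 0.08 in the Pde8b-led cluster, or for Itga8, at 0.05 in the Grem1-led cluster. Over all alternatives, single clusters among them, Col1a1 was past 1.5-fold in 16 of 18 and as close as −0.20. Mmp3 was past it in 17 of 18 and as close as 0.26. In the Grem1-led cluster the interferon list also turned, with a median of 0.90 and Rsad2 at 2.69.

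C7-high fibroblast-like nuclei had less collagen III, collagen XV and fibrillin in the aneurysm and more Mmp2, and a set of genes that were almost absent from one library and present in the other. Of 7541 measured genes 17.5% were higher and 9.79% lower, from 385, 461 and 505 nuclei. The matrix list had 3 of 19 lower and 4 higher, with a median of −0.12 beside 0.10 for all measured genes. Col3a1 was at 1224, 1014 and 705 CPM, highest in room air and lowest in aneurysm. Col15a1, a collagen of the basement membrane zone, was at 159.8, 167 and 56.4 CPM and low only in aneurysm. Col1a1 and Col1a2, the main collagen genes of fibroblasts, were at 253, 289 and 204 CPM and 737, 904 and 617 CPM, short of 1.5-fold. The small proteoglycan gene Bgn was higher, at 56.8, 129 and 90.3 CPM, and of the other 3 higher genes, Fn1 and Tnc were under the level of the other nuclei.

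Of 15 elastic fibre genes, 5 were higher and 1 lower, with a median of 0.23. Fbn1, the lower one, was at 742, 414 and 464 CPM, as low in smoke as in aneurysm. Its direction turned, at a log2 of 0.94, where the macrophage rule was left out, and at 0.90 with coarser clusters. The higher genes included Fbln2, a fibulin, at 68.9, 78.4 and 132 CPM and the latent TGF-beta binding gene Ltbp4 at 90.3, 142 and 148 CPM. Eln at 537, 654 and 1003 CPM was higher but under the level of the other nuclei, and was −0.06 without the macrophage rule.

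Mmp2 (gelatinase A), the main metalloprotease of adventitial fibroblasts, was at 76.9, 74.2 and 152 CPM, high only in aneurysm. The cathepsin gene Ctsk was higher as well, at 15.4, 31.1 and 32.6 CPM, with smoke as high as aneurysm. Adamts5, an aggrecanase, was at 415, 428 and 236 CPM, Adam12 at 185, 266 and 50.2 CPM and the plasminogen activator gene Plat at 181, 75.1 and 103 CPM. The counts were 2 of 14 proteases higher and 4 lower. Timp3, an inhibitor held in the matrix, was at 386, 301 and 218 CPM, but its log2 difference was 0.16 without the macrophage rule. Inhibitors were 2 of 8 higher, Cst3 among them, and 3 lower.

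Inflammatory genes had 2 of 8 higher and 0 lower. These were C4b, the complement component, at 165, 165 and 379 CPM and the alarmin gene Il33 at 209, 192 and 339.8 CPM. In both, room air and smoke were close and aneurysm was higher. Over the alternatives Il33 was past 1.5-fold in 11 of 15, down to a log2 of 0.18. Progenitor genes had 1 of 8 higher, Pi16 at 72.2, 136 and 138 CPM, and 2 lower, Sema3c and Ackr3. TGF-beta genes had 2 of 14 higher, the coreceptor gene Tgfbr3 at 729, 829 and 1392 CPM and Ccn2, and 0 lower. NRF2 targets, which respond to oxidants and electrophiles, had 3 of 6 lower, Gclc, Gclm and Pgd, and 0 higher. Of those 3 genes, 1 was above the level of the other nuclei.

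Genes nearly absent from room air stood out among the higher ones. Ntng1, which encodes the adhesion protein netrin G1, had 0, 51 and 103 UMIs and was at least 64.4-fold higher in aneurysm than a floor of 3 UMIs in room air (exact 95% limit 51.4). It was found in few nuclei, 0, 11 and 16 of 385, 461 and 505. Smoke had it too. Gpm6a, a membrane glycoprotein gene, had 1, 20 and 33 UMIs and Itgb4, integrin beta 4, had 6, 56 and 80, from 14 and 16 aneurysm nuclei. Fgf10, a growth factor that signals to epithelium and fat precursors, was at 10.0, 27.4 and 118 CPM, the cartilage intermediate layer protein gene Cilp at 3.34, 11.2 and 42.6 CPM and the lipocalin gene Apod at 4.01, 30.7 and 50.2 CPM. Clstn2 and Nebl were 12.5-fold and 17.3-fold higher. In aneurysm Cilp and Nebl had UMIs in 14 nuclei each, Clstn2 in 22, Apod in 27 and Fgf10 in 42, so these levels came from a small part of the C7-high nuclei. The mesothelial marker Wt1 was at 1.34, 1.24 and 35.1 CPM, the 1 gene of 6 on that marker list that could be measured here.

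The lower genes of these fibroblasts were as far apart. Hhip, the inhibitor that binds Hedgehog ligands, had 208, 255 and 1 UMIs, with an inverse ratio of 111 (19.7 to 4402). Robo1, a Slit receptor, was at 2219, 2285 and 308 CPM. Stk32a, Rgs6 and Slc4a10 were 7.73-fold, 9.33-fold and 4.72-fold lower. Fam135b had 32, 38 and 0 UMIs, at least 5.69-fold lower against the same floor (exact 95% limit 4.36). Cdh12, a cadherin, was 20.8-fold lower but is among the genes that set this cluster apart.

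All 9 measured genes of lipogenesis, the making of fatty acids, were higher in the C7-high nuclei of aneurysm, and 0 of these were above the level of the other nuclei. Their sum was 358, 383 and 948 CPM, and the same list summed to 315, 365 and 651 CPM in contractile smooth muscle-like nuclei and 281, 321 and 601 CPM in Bmp6-high endothelial-like nuclei. Fat nuclei of the aneurysm held far more of these RNAs, as given with the fat nuclei. Their part in the higher sums was not tested. For macrophage markers the C7-high sums were 699, 868 and 473 CPM.

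**Figure D2:**
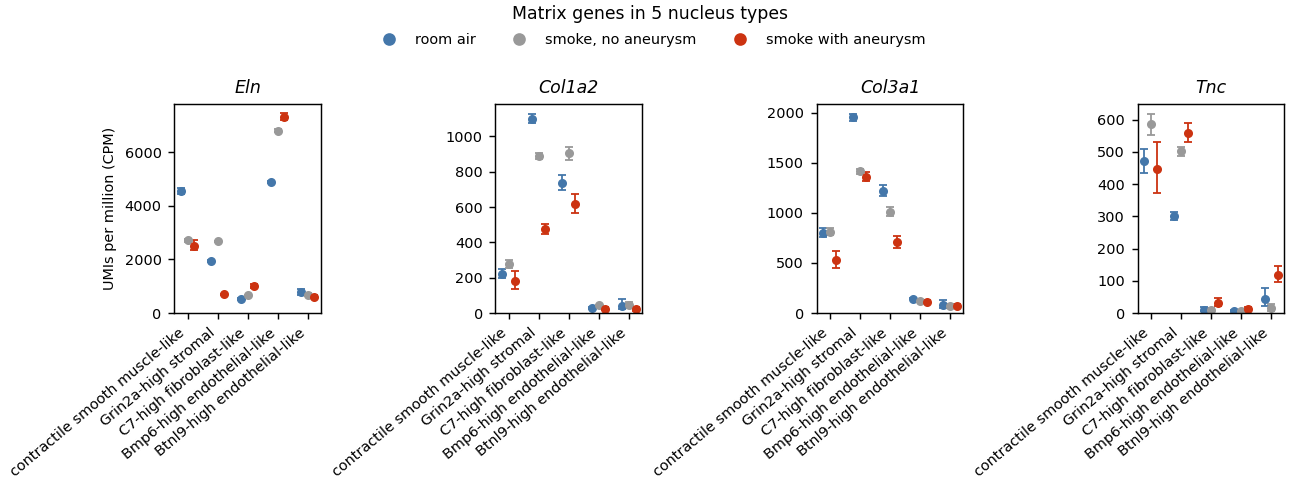
Level of 4 matrix genes, in CPM on linear axes that start at 0, in 5 nucleus types of the room air, smoke and aneurysm libraries, with exact 95% intervals for counting error. Eln was lower in aneurysm than in room air in contractile smooth muscle-like and Grin2a-high nuclei and higher in Bmp6-high endothelial-like nuclei, and Tnc was higher in Grin2a-high nuclei.

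Among the 10 types, Bmp6-high endothelial-like nuclei carried the largest part of the elastin UMIs, at a higher level in aneurysm than in room air. Eln in these nuclei was at 4881, 6796 and 7323 CPM, from 48933, 64519 and 14870 UMIs, so aneurysm and smoke were both above room air. They held 49.3% of all Eln UMIs of the room air library, 37.0% in smoke and 71.1% in aneurysm. Contractile smooth muscle-like nuclei held 6.33%, 3.52% and 3.54% and Grin2a-high stromal nuclei 12.9%, 15.7% and 8.73%. Filtered nuclei outside the 10 types, those that failed the macrophage rule among them, held 27.7%, 38.0% and 8.78%. In smoke that was above the Bmp6-high part. The endothelial identity of the Bmp6-high nuclei rests on a marker sum of 7252, 7752 and 8005 CPM, with 10 of 10 markers measured, beside 240.4, 379 and 199.95 CPM for smooth muscle markers. The log2 difference of Eln between aneurysm and room air was 0.59, at the edge of the 1.5-fold rule, and thinning gave a log2 of 0.47, below it. Over all alternatives Eln was past 1.5-fold in 6 of 16 and higher in aneurysm in each, down to 0.35.

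Of 9766 genes measured in the Bmp6-high nuclei, 9.87% were higher and 9.23% lower. The endothelial activation list, which holds flow-sensing and leukocyte adhesion genes, had 4 of 12 higher and 4 lower, with a median of 0.04 that was 0.65 when nuclei were thinned to 500 UMIs. Higher were Klf2 and Klf4, factors that laminar flow induces, at 119, 297 and 344 CPM and 92.8, 139.8 and 224 CPM. Nos3, the endothelial nitric oxide synthase, was at 253, 299 and 394 CPM, and Edn1, the vasoconstrictor endothelin, at 594, 878 and 909 CPM. Edn1 is also among the leading genes of a cluster pooled here, so its level is not independent of the clustering. Lower were the adhesion genes Vcam1, at 223, 370.2 and 141 CPM, and Selp (P-selectin), at 352, 310.0 and 231 CPM, with Angpt2 and Thbd. For Vcam1 the smoke library was the highest of the 3. Of these 8 genes 7 were above the level of the other nuclei. After thinning, Klf2, Klf4, Nos3 and Edn1 gave log2 differences of 1.34, 0.88, 0.71 and 0.60, and Vcam1 and Selp gave −0.64 and −0.25. Thinning thus took Selp alone of these 6 below 1.5-fold, but over all alternatives Vcam1 and Selp were each past it in 11 of 16, and Vcam1 was as close as −0.23. Klf2 and Klf4 were past it in 16 of 16 and Nos3 and Edn1 in 14.

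Other endothelial lists moved little. Junction genes had 1 of 10 higher, Jam2, and 1 lower, Ocln (occludin), at 67.0, 56.8 and 38.9 CPM, with a median of 0.04. Cdh5, the main adherens junction gene, was at 323, 362 and 306 CPM. Arterial and venous genes had 1 of 9 higher, the connexin gene Gja4 at 31.5, 91.0 and 54.7 CPM, and 0 lower, with a median of 0.34. The basement membrane list had 4 of 11 higher, all laminins, and 1 lower, Col4a2. Of the 4 laminins, 1 was above the level of the other nuclei.

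Proteases were higher in 6 of 12 and lower in 1, with a median of 0.49, but 2 of the 6 were above the level of the other nuclei. Plat, tissue plasminogen activator, was at 52.8, 48.9 and 112 CPM, and Adamts1 was at 57.9, 114 and 89.6 CPM. Inhibitors had 2 of 7 lower, Timp3 at 149, 157 and 82.7 CPM and Cst3, and 0 higher. TGF-beta genes split 2 and 2 of 14. Cxcl12, a chemokine that arterial endothelium makes, was at 81.2, 128 and 42.8 CPM.

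Interferon genes were lower in the Bmp6-high nuclei, with 3 of 4 measured past 1.5-fold, Gbp2 and Gbp3 among them. Iigp1, an interferon-induced GTPase, was at 62.1, 100.5 and 8.37 CPM, 7.42-fold (4.598 to 12.8) lower. Ifi44 had 56, 84 and 0 UMIs and was at least 3.78-fold lower against a floor of 3 UMIs (exact 95% limit 2.97). The macrophage marker sum was lower as well, at 657, 701 and 295 CPM, with 7 of 9 members lower. Its part in the interferon values was not tested.

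The genes furthest apart on the higher side were St8sia6, a sialyltransferase gene, at 21.8, 42.2 and 129.5 CPM and the calcium-dependent kinase gene Camk4 at 14.7, 68.7 and 75.4 CPM. Vwc2, a BMP antagonist, was at 37.2, 27.0 and 149 CPM. Smoke lay between the pair for St8sia6, near aneurysm for Camk4 and below room air for Vwc2. Camk4 had UMIs in 6.25%, 15.0% and 6.84% of nuclei, and 1 aneurysm nucleus held 35 of the 153 UMIs there. Ifitm10, Cadm3, Tc2n and Pak5 were 4.11-fold, 3.59-fold, 3.21-fold and 3.08-fold higher. Of the lower genes, Dusp5, a phosphatase that acts on ERK, was 6.28-fold lower, from 155, 81 and 5 UMIs. The log2 after thinning was −0.11, but thinning leaves few UMIs of this gene, and a count of 0 is set at 3 there. That value cannot tell whether the difference holds at equal depth. Cdca7l and the antisense RNA gene Sorbs2os were 3.54-fold and 5.08-fold lower. Whether counting used strand was not stated in the labels, so Sorbs2os cannot be told apart from Sorbs2. Neil3, Top2a and Pcdh15 were lower too and define the 2 pooled clusters, of which the Top2a-led one was 19.9% of the type in room air and 45.2% in aneurysm. In the larger, Pcdh15-led cluster alone, Top2a gave 0.02.

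Btnl9-high endothelial-like nuclei, 7.67 times as frequent in aneurysm, had lower immediate early genes, Sele and Vcam1 there and higher arterial genes. Only 64 room air nuclei with 235801 UMIs stand behind these values, so 4003 genes were measured, of which 17.3% were higher and 10.2% lower. Arterial and venous genes had 5 of 9 higher and 0 lower, with a median of 0.75 beside 0.05 for all measured genes. All 5 were above the level of the other nuclei. Sox17 was at 50.9, 43.3 and 89.6 CPM, the Notch ligand gene Dll4 at 38.2, 61.4 and 64.0 CPM and the connexin gene Gja5 at 80.6, 40.5 and 152 CPM. Sema3g, an arterial semaphorin, was at 38.2, 72.6 and 98.6 CPM, and Bmp6 at 505, 1263 and 1142 CPM.

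Leukocyte adhesion genes differed among themselves. Sele (E-selectin) was at 123, 209 and 24.3 CPM and Vcam1 at 242, 329 and 97.3 CPM. In both, smoke was the highest and aneurysm the lowest, so smoke alone went the other way from aneurysm. Icam1 was higher, at 59.4, 51.6 and 109 CPM. Edn1 at 123, 214 and 343 CPM and Klf2 at 131, 141 and 229 CPM were also higher, as in the Bmp6-high nuclei. So 3 of 10 activation genes were higher and 2 lower. Junction genes Jam2, Jam3 and F11r were higher, 3 of 9, with 0 lower.

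The immediate early list had 5 of 9 lower, 0 higher and a median of −0.70. Macrophage markers were lower as well, 4 of 4, with a sum of 738, 687 and 351 CPM, and their part in these values was not tested. Egr1 was at 428, 441 and 241 CPM, Fosb at 505, 525 and 181 CPM and Jun at 386, 488 and 237 CPM. Of the 5 genes 4 were above the level of the other nuclei. Irf1, a transcription factor downstream of interferon gamma, was at 309.6, 204 and 66.6 CPM, and Pnrc1, Emp1, Ifrd1, Shb, Arf4 and Rap1b were 2.49-fold to 4.52-fold lower.

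Basement membrane genes of the Btnl9-high nuclei split by kind. The laminins Lama4, at 225, 369.9 and 401 CPM, Lama5, Lamb2 and Lamc1 were higher, while the collagen genes Col4a1, at 772, 254 and 508 CPM, and Col4a2, at 662, 307 and 398 CPM, were lower. For both collagen genes smoke was the lowest. In the capillary list 2 of 9 were higher, Btnl9, which defines the type, and the lipase gene Lpl, which was under the level of the other nuclei. Genes furthest apart had few room air UMIs. Ccdc9 had 0, 16 and 40 UMIs and Tbc1d8b 0, 25 and 39, at least 4.03-fold and 3.93-fold higher in aneurysm against a floor of 3 UMIs (exact 95% limits 3.13 and 3.04). Slc28a2, a nucleoside transporter gene, was at 29.7, 85.1 and 159 CPM and Fmo2 at 110.3, 417 and 370.1 CPM. Tnk2 and Prag1 were 6.84-fold and 4.19-fold higher. Kit had 2, 38 and 55 UMIs and was 8.30-fold (2.19 to 70.3) higher, and Fgf12 had 1, 2 and 53 UMIs. Both turned with other rules for choosing or clustering the nuclei.

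**Figure D3:**
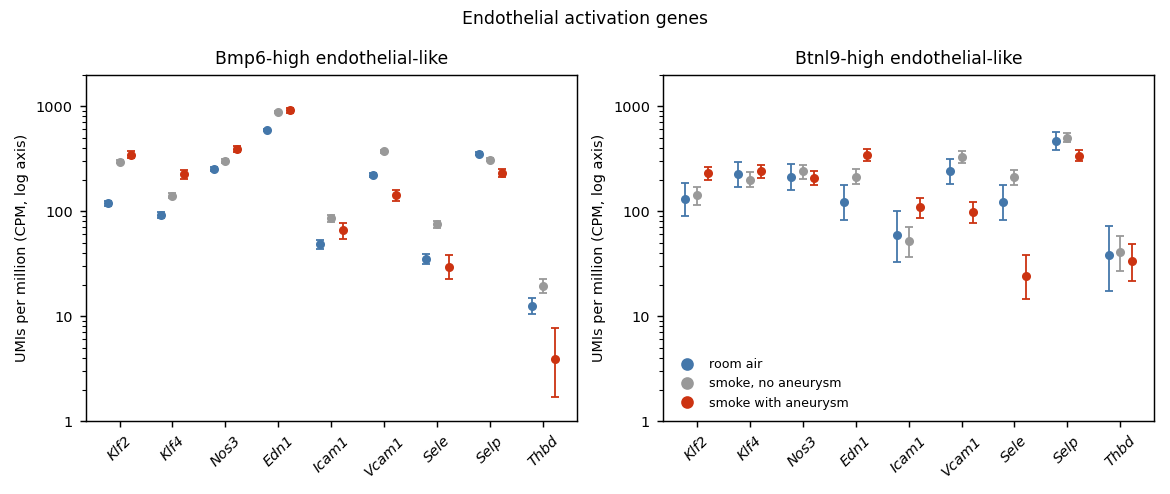
Level of endothelial genes in CPM (log axis) in Bmp6-high and Btnl9-high endothelial-like nuclei of the room air, smoke and aneurysm libraries, with exact 95% intervals for counting error. In Bmp6-high nuclei, Klf2 and Klf4 are higher in aneurysm than in room air and Vcam1 is lower.

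Pkhd1l1-high and lymphatic endothelial-like nuclei were too few on one side for a comparison of genes. With 6 aneurysm nuclei of the first type and 22 room air nuclei of the second, only their shares are compared above. In the lymphatic nuclei, the defining genes Prox1, Mmrn1 and Reln were at 799, 936 and 1037 CPM, 1269.6, 1109 and 747 CPM and 5666, 2257 and 884 CPM. All 3 libraries held them, so the name rests on markers in each. Pkhd1l1 over the 3 vascular endothelial types together was at 164, 251 and 116 CPM, a smaller difference than that in the number of nuclei of the type it leads.

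Fat nuclei of the aneurysm carried far more RNA for making fatty acids than the few fat nuclei of room air. The Ucp1-low adipocyte-like nuclei numbered 24, 68 and 651, with 129706 UMIs in room air, so the room air values rest on few nuclei and only counting ranges are given. Acaca, acetyl-CoA carboxylase, which makes the building block of fatty acids, was at 2174, 3286 and 14254 CPM, with a counting range of 1928 to 2443 in room air. Acly, ATP citrate lyase, which supplies acetyl-CoA, was at 61.7, 194 and 3073 CPM, with 26.6 to 122 in room air, and Fasn, fatty acid synthase, at 185, 349 and 1731 CPM. Elovl6, which lengthens the product, was at 38.5, 92.7 and 1483 CPM, and the malic enzyme gene Me1, a source of NADPH, at 293, 357 and 3514 CPM. For each of the 5 the order was room air, smoke, aneurysm, with smoke nearer to room air.

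The regulators of that programme were higher as well. Mlxipl, the carbohydrate response factor ChREBP, was at 185, 349 and 1255 CPM and Srebf1 at 269.8, 425 and 682 CPM. Pparg, the master factor of fat cells, was at 2706, 2840.2 and 4148 CPM. Scd1, a desaturase, differed less, at 2444, 3183 and 4042 CPM, and Acacb, the carboxylase that restrains fat oxidation, was at 239, 443 and 2300.4 CPM. Scd1 is among the leading genes of this cluster, so its level is not independent of the clustering.

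Genes of lipid storage and release differed among themselves. Lipe (hormone-sensitive lipase) was at 1049, 1048 and 1059 CPM and Plin1 (perilipin) at 817, 615 and 637 CPM, close in the 3 libraries. Plin4 at 1056, 671 and 521 CPM, Fabp4 at 2714, 2885 and 1636 CPM and Adipoq, the adiponectin gene, at 393, 238 and 157 CPM were lowest in aneurysm. Ghr, the growth hormone receptor, was at 9992, 10063 and 10944 CPM. The acyltransferase genes Dgat1 and Dgat2, which make triglyceride, were higher, at 208, 268 and 369.9 CPM and 748, 794 and 1201 CPM. Dgat2 is also among the leading genes of this cluster. Lpl, which takes up fat from lipoproteins, was higher too, at 1118, 2371 and 2974 CPM. The difference was thus not one of all fat genes together. The aneurysm nuclei were also shallower, with median UMIs of 2422 in room air and 1603 in aneurysm.

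Ucp1-high nuclei, marked by the uncoupling protein of brown fat, numbered 3, 70 and 547, so only smoke and aneurysm are set side by side. Ucp1 was at 585 CPM in smoke and 800 in aneurysm, from 370 and 717 UMIs. Dio2, which activates thyroid hormone in brown fat, was at 41.1 and 1079 CPM, Elovl3 at 22.1 and 114 CPM, and the potassium channel gene Kcnk3 at 299 and 770 CPM. Aneurysm stood above smoke for all 4. Other thermogenic genes were closer, with Prdm16 at 1154 and 1279 CPM and Ppara, a leading gene of this cluster, at 2597 and 2881 CPM. Cox8b was at 19.0 and 13.4 CPM, from 12 UMIs in each. Lipogenesis genes differed among themselves. Acaca, at 9009 and 9880 CPM, was close in the pair. Fasn, at 669 and 1105 CPM, and Elovl6, at 1513 and 2756 CPM, were higher in aneurysm. Me1, at 1270 and 819 CPM, was higher in smoke. So was Pparg, at 4216 against 3188 CPM. These values compare 2 smoke-exposed libraries, and say nothing of room air.

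**Figure D4:**
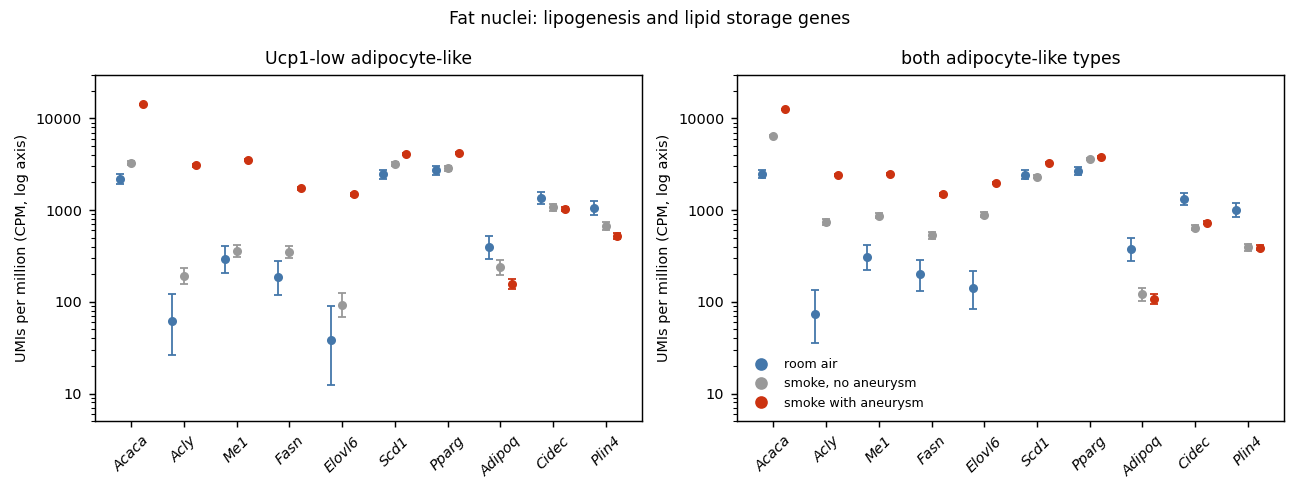
Level of lipogenesis and lipid storage genes in CPM (log axis) in Ucp1-low adipocyte-like nuclei (left) and in both adipocyte-like types together (right) of the room air, smoke and aneurysm libraries, with exact 95% intervals for counting error. In Ucp1-low nuclei the lipogenesis genes Acaca, Acly, Me1, Fasn and Elovl6 stand highest in aneurysm, and Adipoq and Plin4 lowest.

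Cycling nuclei, those with UMIs of at least 2 of 10 proliferation genes, were fewer in the aneurysm at full depth in Grin2a-high and Bmp6-high nuclei. At equal depth the ranges overlapped. In Grin2a-high nuclei they were 50 of 908 in room air, 60 of 900 in smoke and 16 of 1019 in aneurysm. Thinned to 500 UMIs each, the counts were 14, 15 and 6, a smaller difference in the same direction. The thinned share had a range of 0.845% to 2.57% in room air and 0.216% to 1.28% in aneurysm. In Bmp6-high nuclei they were 28 of 1136, 16 of 937 and 0 of 526, for which a floor of 3 counts allows a share of up to 0.570%, and 5, 3 and 0 after thinning. Here the thinned ranges were 0.143% to 1.02% in room air and 0% to 0.699% in aneurysm. In contractile, C7-high and Btnl9-high nuclei the thinned count was 0 in every library. The proliferation list gave 9 of 9 lower in Grin2a-high nuclei, 7 of them above the level of the other nuclei, with Top2a at 41.6, 35.4 and 15.9 CPM and Cenpe at 40.8, 23.1 and 9.85 CPM. In the Bmp6-high nuclei 5 of 5 were lower, 1 of them above that level. Because cell cycle genes lead 2 of the pooled clusters, these counts describe the pool and are not independent of the clustering.

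**Figure D5:**
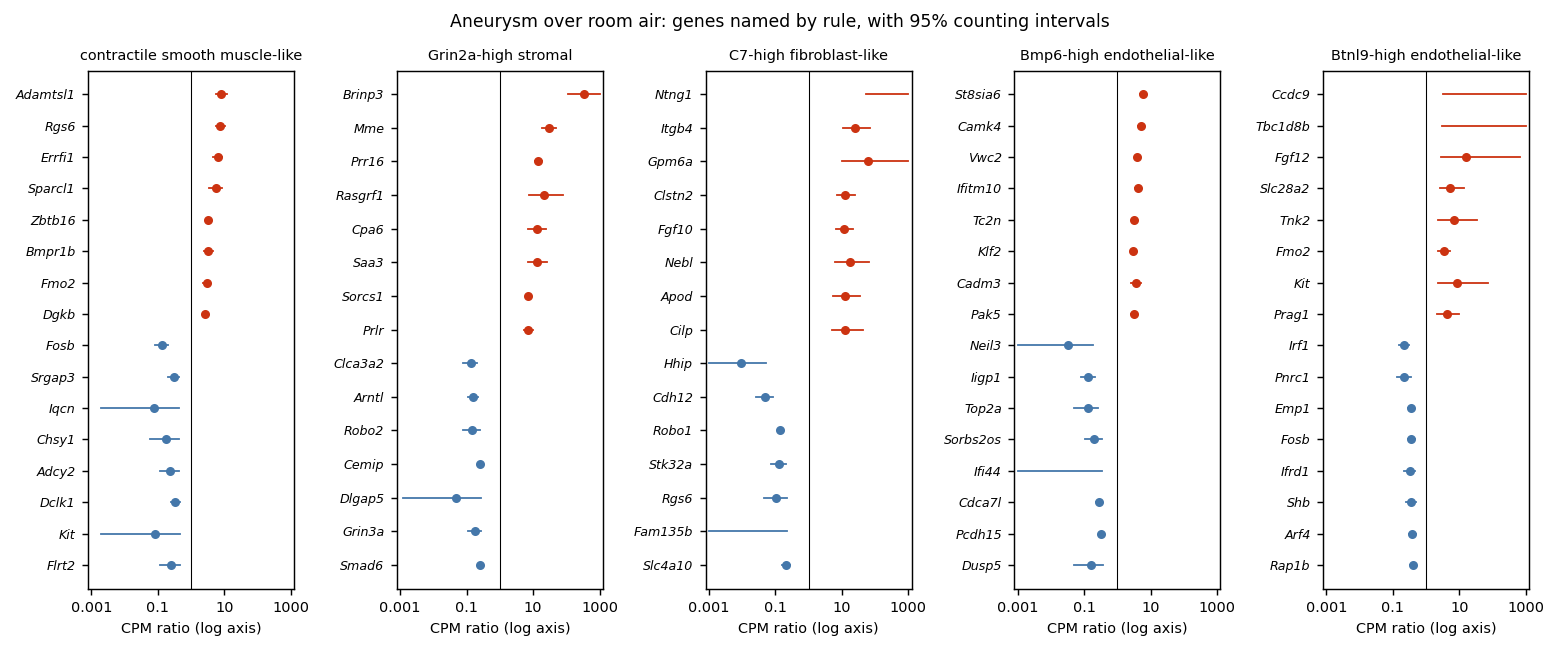
Ratio of aneurysm to room air CPM (log axis) for genes named by rule in 5 nucleus types, with exact 95% intervals for counting error, red where higher in aneurysm and blue where lower. Intervals are drawn between 0.001 and 1000, and a gene with no UMI in one library has a bar without a point, as Ntng1 in C7-high fibroblast-like nuclei.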

How the data were processed

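The deposited matrices hold raw UMI counts per gene and barcode, which the authors made with cellranger 8.0.1 per the file headers, whereas STAR, mm10 and Cell Ranger 2.2.0 are listed, per the submitters' processing notes. That conflict was not resolved, so coordinates are given only for RefSeq promoter sequences. The files hold 33696 gene features, and each library has 1 matrix. The lowest barcode held 500 UMIs in each library.

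Barcodes with at least 500 UMIs, 300 genes and under 5% mitochondrial UMIs were kept, and those with at most 1 of the 6 macrophage genes were clustered together over the 3 libraries. Each nucleus was scaled at its full depth to 10000 and logged, and 2000 variable genes, 30 components, 20 neighbours and Leiden clustering at resolution 1 (scanpy 1.11.5, igraph 0.11.9) gave 25 clusters, of which 14 were kept. Clusters were named from marker lists, and some were pooled into 1 type after their leading genes and depths had been seen. Scrublet marked 3.33%, 2.56% and 0.0175% of filtered nuclei as doublets in room air, smoke and aneurysm. It marked 1 of 5707 in aneurysm, so the caller did not work there. Removing its calls would have treated the libraries unequally, so doublets were left in, and leaving out the highest 5% of scores in each library is an alternative. Counts were summed per type and library at full depth, with each nucleus thinned to 500 UMIs as an alternative, and CPM ratios were given exact 95% intervals (scipy 1.17.1, numpy 2.4.6, pandas 2.3.3, Python 3.11.15), figures by matplotlib 3.10.9. The CPM ratios and their intervals were tested on simulated data, as Poisson counts with no spread between nuclei. The macrophage rule, the clustering and free RNA were not part of that test.

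Genes named beyond the lists were, in each type with 50 nuclei in both libraries, up to 8 per direction ranked by the ratio bound nearest 1. Each needed 30 UMIs and 10 nuclei with a UMI where it was higher, no nucleus with over 25% of those UMIs, a CPM there no lower than in that library's other nuclei, and a bound at least 1.5 from 1. Predicted, clone, mitochondrial, ribosomal, haemoglobin and Y-linked genes, Xist and Tsix were left out. Some genes that met the rule are not reported here. The members and gene lists were chosen with earlier results of these data known.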

Additional observations from a re-analysis of the deposited data

Results flagged for a closer look

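Several genes stood higher in the aneurysm than in room air in one type of nucleus and lower in another, each by at least 1.5-fold and with counting ranges on opposite sides of 1. There was 1 library a side, so none of these differences between types was tested. C7-high fibroblast-like nuclei were on one side of most of them. Rgs6 was 7.60-fold higher in contractile smooth muscle-like nuclei and 9.33-fold lower in C7-high nuclei, and Adamtsl1 was 8.04-fold higher and 2.84-fold lower in the same types. Bmpr1b was 3.30-fold higher in contractile and 2.27-fold higher in Grin2a-high nuclei and 3.63-fold lower in C7-high nuclei. Prlr was 7.08-fold higher in Grin2a-high nuclei and 6.19-fold lower in C7-high nuclei.

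Cemip ran the other way, 7.42-fold higher in C7-high and 4.06-fold lower in Grin2a-high nuclei, where it defines a pooled cluster. Camk4 was 5.14-fold higher in Bmp6-high endothelial-like nuclei and 10.1-fold lower in C7-high nuclei, and Prr16 was 14.1-fold higher in Grin2a-high nuclei and 3.28-fold lower in Bmp6-high nuclei. Against Btnl9-high endothelial-like nuclei, Gpm6a was 61.9-fold higher in C7-high nuclei and 2.28-fold lower, Nebl 17.3-fold higher and 3.88-fold lower, and Adamts1 was 2.11-fold higher in contractile nuclei and 2.84-fold lower. Kit was 8.30-fold higher in Btnl9-high and 12.3-fold lower in contractile nuclei, the latter from 1 aneurysm UMI, and the former turned under other rules for choosing the nuclei.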

How the results depend on the processing

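Single genes were followed through the alternatives only for a chosen set of pairs of a gene and a type. The set held the genes named by rule, whose bound already had to be at least 1.5 from 1, and other picked genes. Of 136 such pairs past 1.5-fold, 96 stayed past it in every alternative run (14 to 18 per pair), 31 dropped below it in at least 1, and 9 turned in at least 1. These counts are therefore not a rate for all genes past 1.5-fold. No paired analysis was possible because each group has 1 library. Coarser or finer clusters, removal of shared barcodes, of the highest Scrublet scores or of each gene's top nucleus moved no share, list median or gene count past its range. Without the rule, the share ratios were 1.73 (Grin2a-high), 2.90 (fibroblast-like), 0.834 (Bmp6-high), 0.116 (Pkhd1l1-high) and 1.04 (endothelial, turned). With it applied after thinning they were 1.72, 2.89, 0.794 and, turned, 1.03 for the first 3 and the last. With none of the 6 genes allowed, fibroblast-like was 1.73, the contractile list median in contractile nuclei 0.86 and the Btnl9-high gene count 714. A minimum of 1000 UMIs gave 0.653 (Bmp6-high) and 0.0743 (Pkhd1l1-high), and medians of −1.94 (proliferation, Grin2a-high) and 0.31 (capillary, Btnl9-high). Without the mitochondrial limit the values were 1.67 (Grin2a-high), 0.934 (endothelial), 0.781 (Bmp6-high), 0.104 (Pkhd1l1-high) and −2.02 (proliferation, Grin2a-high). Libraries clustered one by one gave 0.469 (Bmp6-high), −1.99 (proliferation, Grin2a-high) and 0.29 (capillary, Btnl9-high), with no value for Pkhd1l1-high and lymphatic nuclei. Leaving out the smoke library gave −1.93 (proliferation, Grin2a-high). Classes by marker UMIs gave adipocyte-like 11.9. Without fat nuclei in the total, Grin2a-high was 1.20 and endothelial 0.693.

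Genes at least 1.5-fold apart numbered 1039, 2228, 2057, 1865 and 1102 in contractile, Grin2a-high, C7-high, Bmp6-high and Btnl9-high nuclei. As shares of the measured genes, these genes were 25.1%, 20.6%, 27.3%, 19.1% and 27.5%. They numbered 346, 1438, 1047, 871 and 157 with nuclei thinned to 500 UMIs, 332, 1055, 820, 827 and 330 with at least 30 expected UMIs, 10326, 10149, 10228, 11074 and 10295 with no filter beyond 1 UMI, and 296, 822, 693, 581 and 391 at 2-fold. Thinning and the UMI filters also change how many genes are measured, so a change in these counts is not a change in share. The same holds for the counts in single clusters and with none of the 6 genes allowed. Thinning also gave medians of −0.067 (elastic fibre, contractile) and 0.65 (activation, Bmp6-high). Subtracting free RNA gave −6.38 (proliferation, Bmp6-high), and centring on the median gene 0.34 (capillary, Btnl9-high). In single clusters, the Cemip-led one gave 1319 genes and a contractile list median of 0.40 in Grin2a-high nuclei, the Pde8b-led one 1178 and 0.54, and the Grem1-led one a turned interferon median of 0.90.

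Genes that turned were, without the rule and after thinning, Eln (−0.060 and −0.064), Fbn1 (0.94 and 0.95) and Timp3 (0.16 and 0.20) in C7-high nuclei, and Fbn1 also with coarser clusters (0.90). Kit in Btnl9-high nuclei gave −2.79 and −2.79 in those settings, −0.77 at 1000 UMIs, −0.12 without the mitochondrial limit, −0.37 clustered one by one and −0.0060 without smoke. Fgf12 there gave −2.64 with none of the 6 genes, −1.67 at 1000 UMIs and −0.17 one by one. Notch3 in contractile nuclei gave −0.21 when thinned. In single clusters, Rsad2 (2.69) and Adam12 (0.083) turned in Grin2a-high and Top2a (0.023) in Bmp6-high nuclei. The cause of these shifts was not tested. With 1 library a group, the spread between animals is unknown and all ranges cover counting error only.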

Other observations

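The gene groups in this section lie outside the lists used above and were picked after their values had been seen, so their counts describe these libraries and support nothing further. Genes of the circadian clock stood in 2 groups that mostly differed in opposite directions. The clock turns on the factors ARNTL and CLOCK or NPAS2, which switch on the Per genes and output factors such as Tef and Dbp. PER proteins then shut ARNTL and its partner down, so the 2 arms peak at different hours. The labels give no hour of death for any library, and hour and condition cannot be told apart. Arntl was at 90.3, 34.2 and 14.4 CPM in Grin2a-high stromal nuclei, 77.6, 39.0 and 21.3 CPM in C7-high fibroblast-like nuclei and 42.8, 20.96 and 22.7 CPM in Bmp6-high endothelial-like nuclei. Room air was the highest in each, and smoke lay near aneurysm or between the pair. Npas2 was at 49.6, 22.03 and 8.33 CPM in the Grin2a-high and 231, 91.2 and 47.6 CPM in the C7-high nuclei, in the same order. In the other arm, Per1 was at 11.4, 25.8 and 37.5 CPM in the Grin2a-high nuclei, Per2 at 17.5, 46.1 and 60.6 CPM and Per3 at 25.2, 73.2 and 84.1 CPM, each lowest in room air and highest in aneurysm. Tef was at 49.9, 105 and 131 CPM there. At the 1.5-fold rule, 6 of 8 genes of the repressor and output arm were higher in the Grin2a-high nuclei and 6 of 8 in the C7-high nuclei, with 0 lower in either, beside 11.5% and 17.5% of all measured genes higher. In the Bmp6-high nuclei 4 of 6 were higher and 1 lower, beside 9.87% and 9.23% of all measured genes. In contractile nuclei 4 of 5 were higher and in Btnl9-high nuclei 1 of 3, with 0 lower in either. The shares of all measured genes higher there were 11.7% and 17.3%. Of the activator arm, 3 of 5 genes were lower and 1 higher in the Grin2a-high nuclei, and 3 of 5 lower and 1 higher in the C7-high nuclei, beside 9.05% and 9.79% of all measured genes lower. In Bmp6-high nuclei 2 of 5 were lower and 1 higher, in contractile nuclei 1 of 2 lower and 0 higher. In Btnl9-high nuclei the 1 measured gene was within 1.5-fold. The shares of all measured genes lower in these 3 types were 9.23%, 13.3% and 10.2%. In all other filtered nuclei, those that failed the macrophage rule among them, Arntl was at 66.5, 53.3 and 57.9 CPM, a smaller difference, and Tef at 27.2, 45.8 and 95.2 CPM.

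The promoters of 4 of these genes held letters of the elements through which the clock is known to act, and they are shown to place those letters beside the genes of each arm. Capitals mark the match in RefSeq windows of build GRCm38.p6 that run from 250 bases before to 50 bases after a start site. The ROR element TAGGTCA, through which ROR and REV-ERB proteins act on Arntl, was in 2.61% of 32851 such windows on either strand. The E-box CACGTG, which ARNTL binds, was in 7.15%, and the D-box TTATGTAA, which TEF binds, in 0.938%. A match is a description of the letters and not a site of binding or a cause. For each gene only the motif shown is reported, and these genes were picked because the letters were found. Arntl and Per1 each had 2 windows and a match in 1.
Arntl, chr7:113207530-113207558, plus strand: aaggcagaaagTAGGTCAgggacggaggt
Per1, chr11:69098743-69098828, plus strand: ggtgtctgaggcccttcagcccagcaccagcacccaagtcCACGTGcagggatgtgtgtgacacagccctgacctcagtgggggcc
Tef, chr15:81802506-81802591, plus strand: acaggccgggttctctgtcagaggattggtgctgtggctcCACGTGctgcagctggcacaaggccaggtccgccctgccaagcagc
Tef at a second start, chr15:81811236-81811321, plus strand: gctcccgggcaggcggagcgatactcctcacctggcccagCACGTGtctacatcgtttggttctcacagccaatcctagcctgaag
Per3, chr4:151044776-151044910, minus strand: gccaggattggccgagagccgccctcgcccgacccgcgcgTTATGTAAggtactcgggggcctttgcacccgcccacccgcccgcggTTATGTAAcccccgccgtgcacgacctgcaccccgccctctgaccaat

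Genes known to respond to glucocorticoids were higher in several types. All 5 measured genes of a list of 6 were higher in contractile smooth muscle-like nuclei, 4 of 6 in Grin2a-high, 3 of 6 in Bmp6-high and in Btnl9-high, and 2 of 6 in C7-high nuclei, with 1 lower in Btnl9-high and 1 in C7-high nuclei. Of all measured genes in these types, in that order, 11.7%, 11.5%, 9.87%, 17.3% and 17.5% were higher. Fkbp5, a chaperone of the glucocorticoid receptor, was at 96.3, 82.3 and 177 CPM in the contractile nuclei and 122, 139 and 197 CPM in the Grin2a-high nuclei. Sgk1, a serum and glucocorticoid regulated kinase, was at 33.3, 45.6 and 51.1 CPM in the contractile nuclei. Tsc22d3, the gene not measured there, had 5, 56 and 5 UMIs.

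Of 3256 genes measured in all 5 compared types, 17 were at least 1.5-fold higher in aneurysm in every one and 8 at least 1.5-fold lower. The lower genes were Arf4, Arhgap15, Dock2, Fosb, Mmp12, Psap, Ptprc and Tm4sf1, of which Ptprc, Dock2, Arhgap15 and Mmp12 are genes of blood and macrophage cells. Among the higher genes was Vegfa, the main growth factor of endothelium, at 39.1, 22.1 and 71.6 CPM in contractile smooth muscle-like nuclei, 51.3, 27.9 and 86.4 CPM in Grin2a-high nuclei and 42.1, 55.6 and 166 CPM in C7-high nuclei. Lars2 and Cmss1 were higher in all 5 types and lower in smoke than in room air. Over all filtered nuclei they were at 643, 262 and 1666 CPM and at 1336, 694 and 3160 CPM, in the same order as in each type.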
